A study of Mus with 9 samples.

Results

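The atrial and ventricular myosin light chains of the heart, with 2 further transcripts of atrial muscle, were followed across 9 mouse libraries. The 6 genes were taken by symbol from the 55421 genes of the count table. Myl7, Myl4, Sln and Mybphl stand for atrial muscle and Myl2 and Myl3 for ventricular muscle. Each symbol matched 1 gene, and all 6 were among the 19326 genes with enough counts to be tested.

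Samples came from wild-type male C57BL/6J mice aged 8 to 10 weeks, in 3 groups of 3 libraries. MI_ART mice had a myocardial infarction, made by permanent ligation of a main coronary artery (the left anterior descending branch), and received artesunate, an antimalarial artemisinin derivative. MI mice had the same ligation and vehicle, and Sham mice had surgery without ligation and vehicle. The dose is uncertain, since one label gives 25 mg/kg daily for 7 days from surgery and another gives 10 mg/kg every other day from 2 days before surgery to day 7. The tissue is given as atria in one place and as left atrium in another. The libraries also held ventricular transcripts: Myl2 had 42220 counts or more in each of the 9. MI_ART 3 had 124634 counts of Myl2, 159 of Myl7, 60 of Sln and 50 of Mybphl. Whether the dissected tissue matched the label was not tested. Some text speaks of rats and of a further group, the RNA extraction is described in different ways, and the day of harvest is not stated. Whether the libraries of a group came from separate animals is given only by their titles, so every p-value below reflects the spread between libraries, which may be technical.

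Each myosin heavy chain of striated muscle carries a regulatory and an essential light chain on its lever arm. Atrial muscle cells mainly use Myl7 as the regulatory and Myl4 as the essential chain, whereas ventricular muscle cells use Myl2 and Myl3. Sln (sarcolipin) is a small membrane peptide that inhibits the calcium pump of the sarcoplasmic reticulum, and Mybphl is a myosin-binding protein H-like protein of atrial muscle. Myl4 is also made in embryonic muscle, and Myl2 and Myl3 are also made in slow skeletal muscle.

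Total counts were 69363844 to 69974836 in MI_ART, 72376936 to 73621277 in MI and 68046341 to 83685313 in Sham. A floor of 3 counts corresponded to 0.0322 to 0.0592 CPM, the usual depth-scaled unit of read counts, here taken over library sizes after TMM scaling (a trimmed mean of log ratios between libraries). Mitochondrial genes took 23.0% to 25.5% of counts in MI_ART, 12.6% to 20.6% in MI and 37.7% to 43.1% in Sham. Libraries MI 4 and MI_ART 3 stood apart in different ways, MI 4 over the tested genes and MI_ART 3 in atrial transcripts. Comparing counts by chi-square, MI 4 and MI 2 differed by 580 per gene and MI 4 and MI 3 by 469. No other pair within a group exceeded 129. By this measure MI_ART 3 did not stand apart: it differed from MI_ART 1 by 75.3. MI_ART 2 differed from MI_ART 1 by 129 and from MI_ART 3 by 122. MI_ART 3 held almost no Myl7, Myl4, Sln and Mybphl, as given below. Most other atrial markers were low there too. Dkk3, Sbk2, Stard10, Kcnj5, Gja5 and Pam had their lowest values there, at 21.0, 3.48, 5.52, 25.7, 6.47 and 331 CPM. Nppa, at 1290 CPM, was lower only in Sham 2 (1180 CPM), and Kcnj3, at 6.92 CPM, only in MI 4 (2.8 CPM). Kcna5 went the other way, with its highest value there, 9.43 CPM. Bmp10 had no counts there or in several other libraries. Gene lengths were not at hand, so the level of one gene is not compared with that of another.

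The 4 atrial transcripts reached 225 CPM or more in at least 1 MI_ART and 1 MI library and were almost missing from MI_ART 3. No comparison of groups passed the test for any of them. Myl7 (ENSMUSG00000020469, GRCm38.p6 chromosome 11, 5896637 to 5898782), the atrial regulatory light chain, was at 174, 803 and 1.96 CPM in MI_ART 1, 2 and 3. It was at 453, 347 and 990 CPM in MI 2, 3 and 4, and at 822, 168 and 576 CPM in Sham 1, 2 and 3. The ranges of the 3 groups overlapped, and the low MI_ART 3 value rests on 159 counts. The log2 fold change was -0.87 (SE 1.29) in MI_ART against MI (edgeR adjusted p = 0.885). It was -0.68 (SE 1.28) in MI_ART against Sham (edgeR adjusted p = 0.766) and 0.19 (SE 1.28) in MI against Sham (edgeR adjusted p = 0.924). The sign depends on single libraries: without MI 4 the change of Myl7 in MI against Sham was -0.38, and without Sham 2 it was -0.23.

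Myl4 (ENSMUSG00000061086, chromosome 11, 104546017 to 104587215), the atrial essential light chain, was at 268, 1474 and 6.21 CPM in MI_ART 1, 2 and 3. It was at 1399, 1412 and 2922 CPM in MI 2, 3 and 4, and at 1235, 298 and 1103 CPM in Sham 1, 2 and 3. All MI libraries lay above all Sham libraries, but MI 2 exceeded Sham 1 only narrowly, and MI_ART 2 lay within the MI range. Of all tested genes, 25.7% were higher without overlap in MI against Sham. The log2 fold change in MI against Sham was 1.12 (SE 1.22, edgeR adjusted p = 0.521). The change in MI_ART against MI was -1.71 (SE 1.24, edgeR adjusted p = 0.776), and that in MI_ART against Sham was -0.59 (SE 1.21, edgeR adjusted p = 0.786). Cdc27 and 4 predicted genes overlap Myl4 in the annotation, and whether counting used strand is not given in the sources used here, so the Myl4 count could include reads of these neighbours.

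Sln (ENSMUSG00000042045, chromosome 9, 53850251 to 53853849) was at 95.8, 334 and 0.740 CPM in MI_ART 1, 2 and 3. It was at 287, 220 and 531 CPM in MI 2, 3 and 4, and at 395, 97.2 and 405 CPM in Sham 1, 2 and 3. The groups overlapped, with MI_ART 3, at 60 counts, far below the rest. Its log2 fold change was -1.27 (SE 1.27) in MI_ART against MI, -1.06 (SE 1.27) in MI_ART against Sham and 0.21 (SE 1.25) in MI against Sham, with edgeR adjusted p-values of 0.825, 0.618 and 0.914. The last of these was -0.24 without MI 4 and -0.21 without Sham 2.

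Mybphl (ENSMUSG00000068745, chromosome 3, 108364911 to 108380057) was at 46.1, 225 and 0.616 CPM in MI_ART 1, 2 and 3. It was at 174, 150 and 348 CPM in MI 2, 3 and 4, and at 200, 46.5 and 165 CPM in Sham 1, 2 and 3. As for Myl4, MI 4 and MI_ART 2 were highest and MI_ART 3, MI_ART 1 and Sham 2 lowest, and the groups overlapped. Its log2 fold change was -1.30 (SE 1.26) in MI_ART against MI, -0.60 (SE 1.24) in MI_ART against Sham and 0.71 (SE 1.24) in MI against Sham, with edgeR adjusted p-values of 0.822, 0.79 and 0.699. Single libraries set the size of the changes of all 4 atrial genes. Without MI_ART 2 the log2 fold changes in MI_ART against MI were -2.77 for Myl7, -3.81 for Myl4, -2.85 for Sln and -3.27 for Mybphl, and without MI_ART 3 they were -0.29, -1.13, -0.69 and -0.72. In MI_ART against Sham they were -2.54, -2.65, -2.59 and -2.52 without MI_ART 2, and -0.096, -0.013, -0.48 and -0.013 without MI_ART 3. With limma-voom they were -3.05, -3.73, -3.49 and -3.49 in MI_ART against MI and -2.72, -2.46, -3.12 and -2.63 in MI_ART against Sham. In MI against Sham, leaving out 1 library gave 0.68 to 1.45 for Myl4 and 0.24 to 1.08 for Mybphl. No alternative called any of them, the lowest adjusted p being 0.142 (Myl4 in MI against Sham). The predicted gene Gm12522 overlaps Mybphl, with the same limit as for Myl4.

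**Figure D1:**
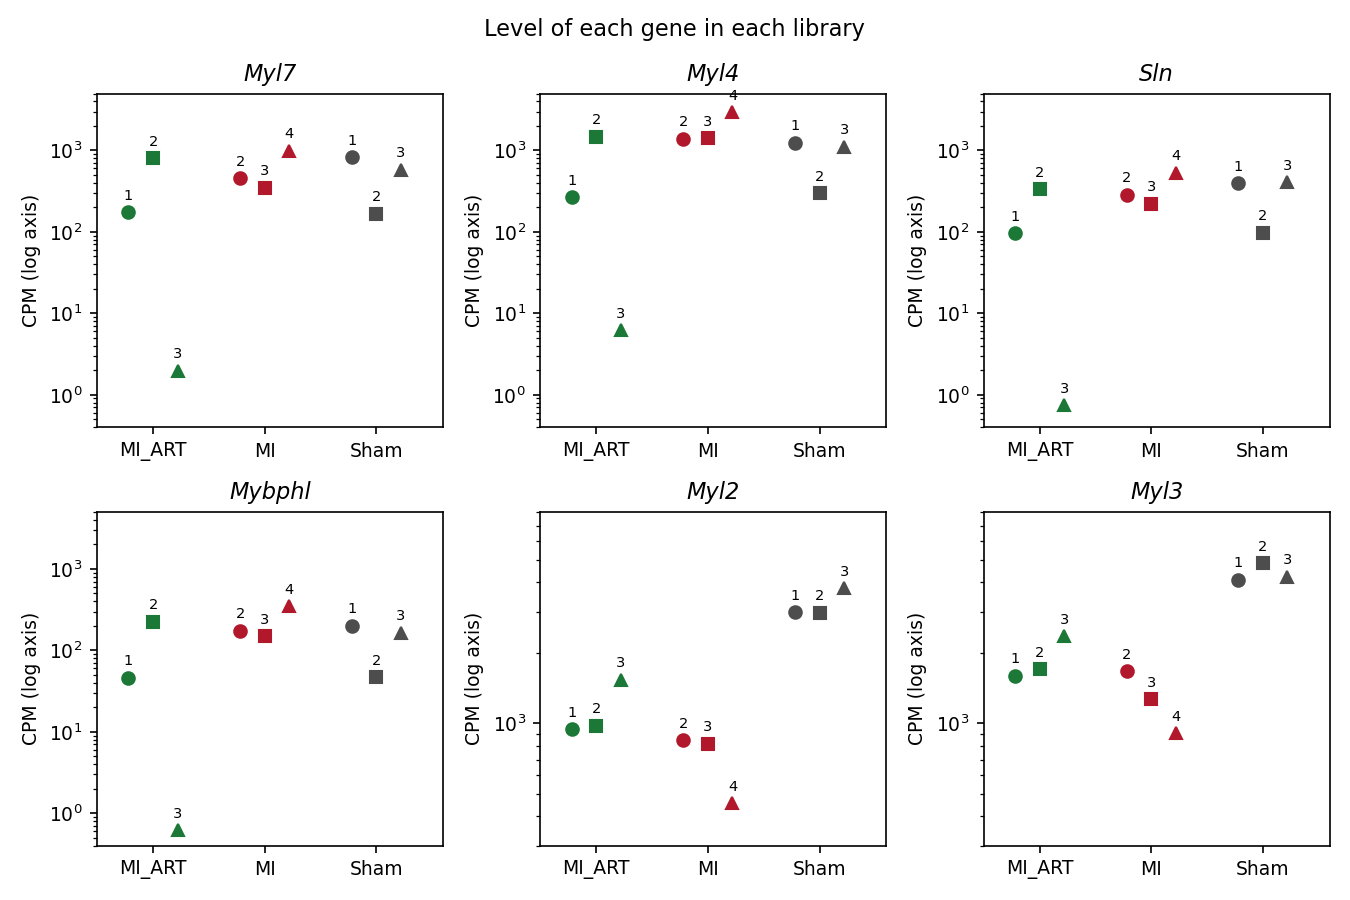
Level of each of the 6 genes in CPM on a log axis (one range for the atrial and another for the ventricular genes), 1 point per library marked with its number, with groups ordered MI_ART, MI and Sham from left to right. The 4 atrial genes span a wide range within groups and are lowest in MI_ART 3, whereas Myl2 and Myl3 are highest in the 3 Sham libraries.

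The spread within groups was wider for the atrial than for the ventricular genes, most of all in MI_ART, where MI_ART 3 was lowest for the atrial genes. The highest library of a group exceeded the lowest 237-fold to 451-fold in MI_ART, 2.09-fold to 2.86-fold in MI and 4.15-fold to 4.90-fold in Sham for the 4 atrial genes. For Myl2 and Myl3 these ratios were 1.62 and 1.48 in MI_ART, 1.86 and 1.84 in MI, and 1.28 and 1.17 in Sham. The pooled SD within groups of log2(CPM + 1) was 2.55 for Myl7, 2.38 for Myl4, 2.42 for Sln and 2.23 for Mybphl. Of 11260 genes with a mean of at least 5 CPM, only 5, 9, 8 and 15 genes had a larger spread than Myl7, Myl4, Sln and Mybphl. The spread was 0.39 for Myl2 and 0.32 for Myl3, beside a median of 0.27 over these genes. The atrial values rest in large part on MI_ART 3. Without MI_ART 3 the SE of the Myl7 change in MI against Sham was 0.68, against 1.28 with it. For Myl2 these SEs were 0.27 and 0.29. The pooled SD and its rank were not recomputed without MI_ART 3.

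Myl2 (ENSMUSG00000013936, chromosome 5, 122092724 to 122113473), the ventricular regulatory light chain, was lower in both infarcted groups than in Sham. It was at 946, 978 and 1537 CPM in MI_ART 1, 2 and 3, at 846, 817 and 455 CPM in MI 2, 3 and 4, and at 2989, 2967 and 3786 CPM in Sham 1, 2 and 3. Every infarcted library lay below every Sham library, and MI 4 was the lowest of the 9. Group means were 1153 ± 332 CPM in MI_ART, 706 ± 218 CPM in MI and 3247 ± 467 CPM in Sham (SD, n = 3 each). Myl2 fell 4.60-fold in MI against Sham (log2 fold change -2.20, SE 0.29, edgeR adjusted p = 0.000484). It fell 2.82-fold in MI_ART against Sham (log2 fold change -1.49, SE 0.28, edgeR adjusted p = 0.00559). The gene Ccdc63 overlaps Myl2 in the annotation.

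Myl3 (ENSMUSG00000059741, chromosome 9, 110763678 to 110769802), the ventricular essential light chain, gave the same picture. It was at 1595, 1706 and 2359 CPM in MI_ART 1, 2 and 3, at 1666, 1269 and 905 CPM in MI 2, 3 and 4, and at 4111, 4824 and 4227 CPM in Sham 1, 2 and 3. The Sham libraries again lay above all others. Means were 1886 ± 413 CPM in MI_ART, 1280 ± 381 CPM in MI and 4388 ± 383 CPM in Sham (SD, n = 3 each). Myl3 fell 3.43-fold in MI against Sham (log2 fold change -1.78, SE 0.25, edgeR adjusted p = 0.000659) and 2.33-fold in MI_ART against Sham (log2 fold change -1.22, SE 0.25, edgeR adjusted p = 0.00756). In bulk samples, fewer cells of a type and less RNA per cell cannot be told apart.

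In MI against Sham, then, 2 of the 6 genes passed, both lower, where 33.1% of all tested genes passed, 18.8% higher and 14.3% lower. Groups did not overlap for 3 of the 6 genes (Myl4 higher, Myl2 and Myl3 lower), where 48.9% of all tested genes did not overlap and 23.2% were lower without overlap. In MI_ART against Sham the same 2 of 6 passed, where 20.3% of all tested genes passed and 7.41% were lower. Both were also lower without overlap there, where 48.2% of all tested genes did not overlap and 22.8% were lower without overlap. Both genes passed in both comparisons without MI 4 and MI_ART 3: Myl2 then fell 3.91-fold in MI and 3.38-fold in MI_ART against Sham, and Myl3 fell 2.99-fold and 2.66-fold. MI against Sham and MI_ART against Sham share the 3 Sham libraries. Over the 4 atrial genes the median log2 fold change was -0.64 in MI_ART against Sham and 0.46 in MI against Sham. Over the 2 ventricular genes it was -1.36 in MI_ART against Sham and -1.99 in MI against Sham. The medians of all tested genes were 0.01 in MI_ART against Sham and 0.04 in MI against Sham.

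Artesunate after infarction gave no call for the 6 genes. Myl2 was higher in every MI_ART library than in every MI library, where 13.9% of all tested genes did not overlap (7.38% higher and 6.52% lower), and Myl3 overlapped in MI_ART 1 and MI 2. The log2 fold change in MI_ART against MI was 0.71 (SE 0.28) for Myl2 and 0.56 (SE 0.24) for Myl3, with unadjusted edgeR p-values of 0.0298 and 0.0451 and adjusted p-values of 0.709 and 0.716. These were the 2 genes of 6 at an unadjusted p under 0.05. DESeq2 and limma-voom also called 0 of the 6, and edgeR called 0.0103% of all tested genes (2 genes). Without MI 4 and MI_ART 3 the log2 fold changes were 0.21 for Myl2 and 0.17 for Myl3, so the size of the difference rests on these libraries.

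**Figure D2:**
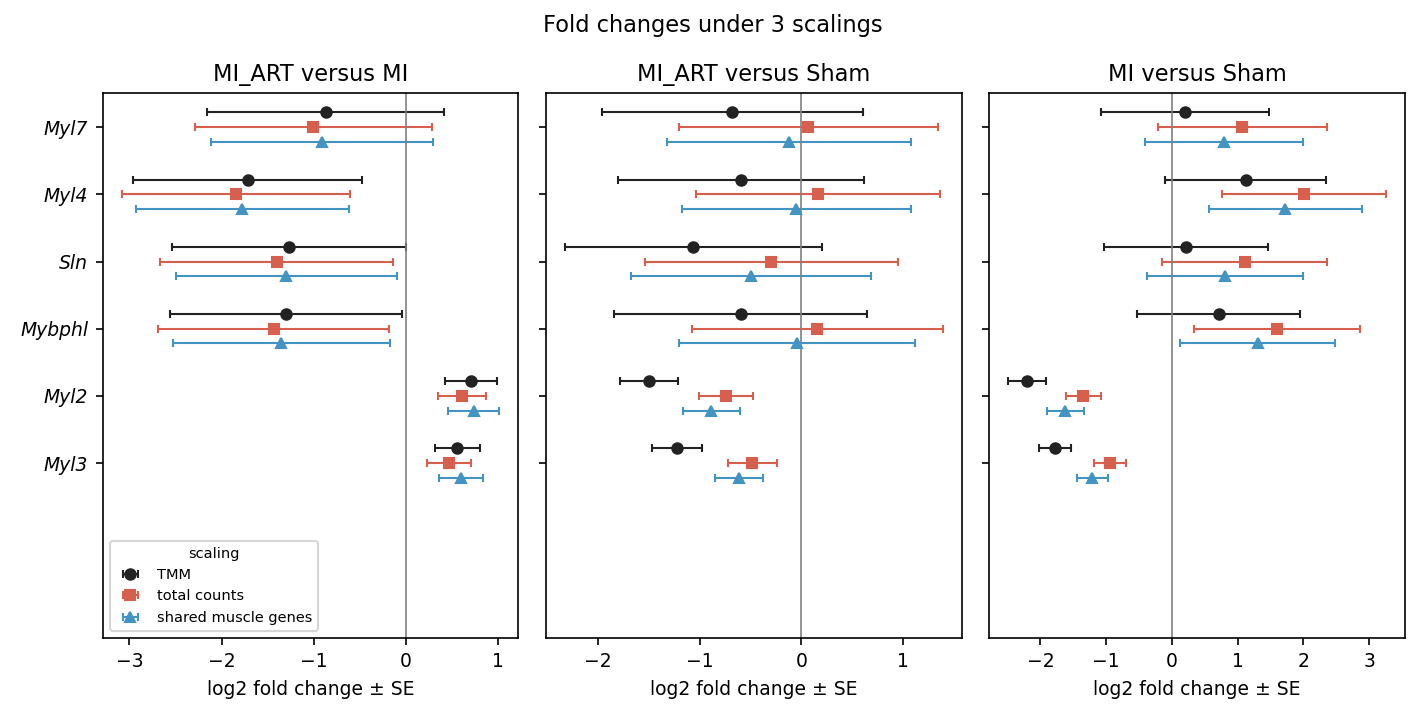
Log2 fold changes with SE of the 6 genes in the 3 comparisons, under TMM, total counts and scaling to shared muscle genes, with 3 libraries per group. Myl2 and Myl3 lie below 0 in both comparisons with Sham under all 3 scalings, and the error bars of Myl7 and Sln reach across or close to 0.

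Scaling moved these values. With total counts in place of TMM, the median of all tested genes was 0.88 on the log2 scale in MI against Sham and 0.75 in MI_ART against Sham. Myl2 still fell by 1.35 and Myl3 by 0.94 in MI against Sham (edgeR adjusted p = 0.00209 and 0.00851). Against Sham, Myl2 in MI_ART fell by 0.74 (edgeR adjusted p = 0.0455), whereas Myl3 had -0.48 and lost its call (edgeR adjusted p = 0.134). Scaled to the geometric mean of 10 muscle genes that both chambers express, Myl2 fell by 1.62 and Myl3 by 1.21 in MI against Sham. In MI_ART Myl2 fell by 0.88 against Sham and Myl3 had -0.61 without a call (edgeR adjusted p = 0.0334 and 0.0708). The share of higher calls was 56.7% in MI against Sham, 93.7% with total counts and 88.1% with muscle scaling. For MI_ART against Sham these shares were 63.5%, 98.5% and 97.2%.

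Set against those shared muscle genes within each library, the level of Myl2 was 65.4% ± 17.6 of their geometric mean in MI_ART, 39.2% ± 12.7 in MI and 121% ± 17.8 in Sham (SD, n = 3 each). For Myl3 it was 107% ± 21.6 in MI_ART, 70.6% ± 18.7 in MI and 163% ± 22.1 in Sham. Myl4 was at 31.0% ± 39.2 in MI_ART, 106% ± 47.7 in MI and 32.0% ± 17.8 in Sham. The shared genes themselves were lower in part under TMM. Of 10, 1 was higher and 6 were lower in MI against Sham, among them the troponins Tnni3 (log2 fold change -1.58) and Tnnt2 (-0.89), while the intermediate filament gene Des was higher (1.26). Of the same 10, 5 were lower in MI_ART against Sham. With total counts 1 was higher and 1 lower in each of these comparisons, and the median in MI against Sham was 0.19 against -0.67 with TMM.

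Ratios of ventricular to atrial counts within a library need no scaling, and they are compared between libraries only. The regulatory pair, Myl2 over Myl7, was 5.45, 1.22 and 784 in MI_ART 1, 2 and 3, and 1.87, 2.36 and 0.460 in MI 2, 3 and 4. It was 3.64, 17.7 and 6.57 in Sham 1, 2 and 3. All MI libraries lay below all Sham libraries, and MI_ART held both a value below most MI libraries and the highest of the 9. The mean ratio on the log scale was 5.94-fold lower in MI than in Sham (log2 difference -2.57, two-sided exact permutation p = 0.1, the smallest that 3 against 3 allows). The difference was 3.78 in MI_ART against MI (exact permutation p = 0.3) and 1.21 in MI_ART against Sham (exact permutation p = 0.9), and without MI_ART 3 they were 1.03 and -1.54.

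The essential pair, Myl3 over Myl4, was 5.96, 1.16 and 380 in MI_ART 1, 2 and 3, 1.19, 0.899 and 0.310 in MI 2, 3 and 4, and 3.33, 16.2 and 3.83 in Sham 1, 2 and 3. Both pairs were highest in MI_ART 3, second in Sham 2 and lowest in MI 4. The essential ratio was 8.54-fold lower in MI than in Sham, without overlap (log2 difference -3.10, exact permutation p = 0.1). In MI_ART against MI the difference was 4.32 (exact permutation p = 0.2), and in MI_ART against Sham it was 1.22 (exact permutation p = 0.8), or 1.92 and -1.17 without MI_ART 3. Over 21 ratio tests the lowest adjusted p was 0.3, so no ratio passed.

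**Figure D3:**
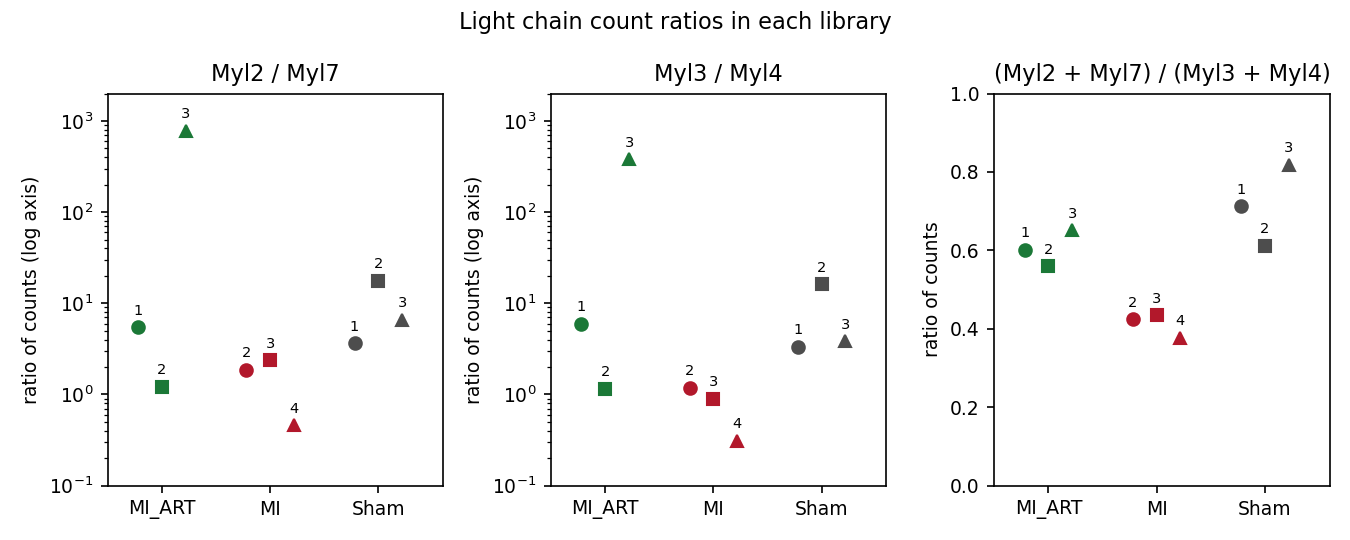
Light chain count ratios in each library: Myl2 over Myl7 and Myl3 over Myl4 on log axes, and the sum of regulatory over the sum of essential chains on a linear axis, with groups ordered MI_ART, MI and Sham. The MI libraries lie below the Sham libraries in all 3 panels, and MI_ART 3 lies far above all others in the first pair at 784 and 380.

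The sum of regulatory chains over the sum of essential chains (Myl2 plus Myl7 over Myl3 plus Myl4, in counts) varied little within groups. It was 0.601, 0.560 and 0.651 in MI_ART 1, 2 and 3, 0.424, 0.434 and 0.377 in MI 2, 3 and 4, and 0.713, 0.612 and 0.818 in Sham 1, 2 and 3. MI lay below both other groups without overlap, while MI_ART and Sham overlapped. The ratio was 1.73-fold lower in MI than in Sham and 1.47-fold higher in MI_ART than in MI (exact permutation p = 0.1 each, adjusted p = 0.3). MI_ART against Sham had a log2 difference of -0.24 (exact permutation p = 0.2).

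Within the atrial set the genes did not keep a fixed proportion. Myl4 over Myl7 was 1.54, 1.84 and 3.17 in MI_ART 1, 2 and 3, 3.09, 4.08 and 2.95 in MI 2, 3 and 4, and 1.5, 1.78 and 1.91 in Sham 1, 2 and 3. The MI libraries lay above the Sham libraries, with a 1.94-fold difference (exact permutation p = 0.1), and MI_ART 3 lay within the MI range. Mybphl over Myl7 was 0.266, 0.281 and 0.314 in MI_ART, 0.384, 0.432 and 0.351 in MI and 0.243, 0.278 and 0.285 in Sham. It was higher in MI than in Sham, 1.45-fold, without overlap, and lower in MI_ART than in MI by a log2 difference of -0.44, also without overlap (exact permutation p = 0.1 each). Sln over Myl7 overlapped between MI and Sham, with a log2 difference of 0.05 (exact permutation p = 0.8). Within the ventricular set, Myl3 over Myl2 was 1.54 to 1.74 in MI_ART, 1.55 to 1.99 in MI and 1.12 to 1.63 in Sham (log2 difference 0.43 in MI against Sham, exact permutation p = 0.2). These 4 ratios were chosen after their values could be seen, and all adjusted p-values were at least 0.3.

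**Figure D4:**
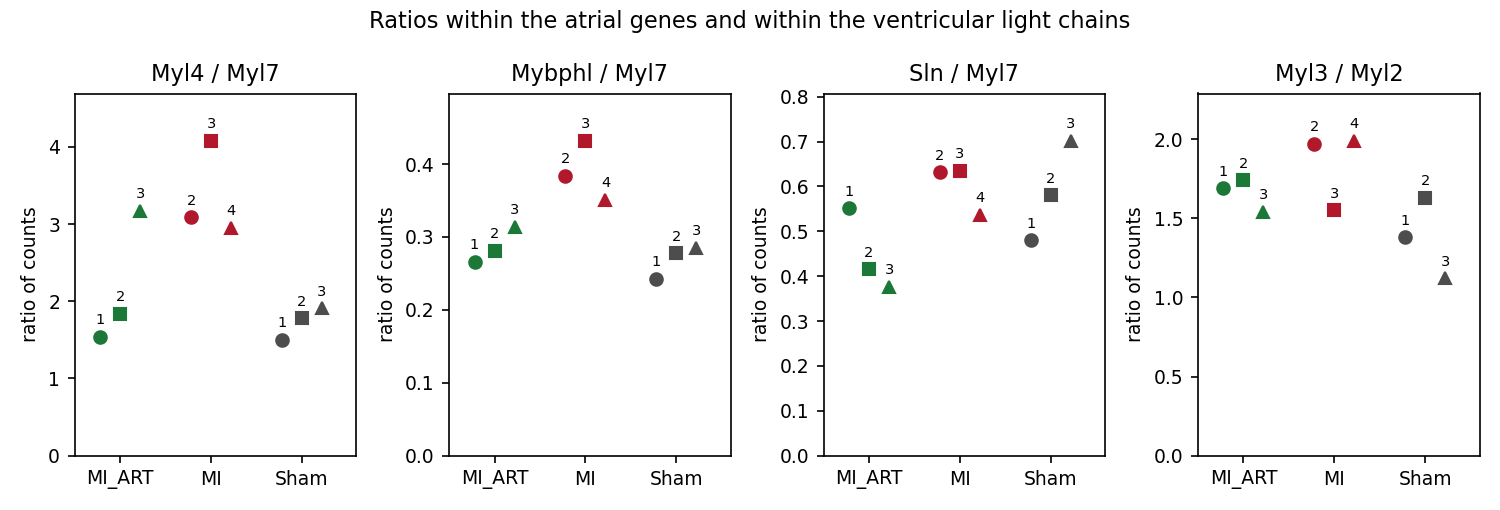
Count ratios within the atrial and within the ventricular set in each library, with groups ordered MI_ART, MI and Sham. Myl4 over Myl7 and Mybphl over Myl7 are higher in all MI than in all Sham libraries, and Sln over Myl7 overlaps between them.

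Across the 9 libraries the 4 atrial genes ran together. Pearson's r of log2(CPM + 1) was 0.982 to 0.997 between them, and 0.995 to 0.999 with the group means removed. Without the 2 libraries farthest from the median, MI_ART 3 among them, it was 0.845 to 0.974. Myl2 and Myl3 had r = 0.985, and 0.850 with the group means removed. Between atrial and ventricular genes r was -0.106 to -0.245, and -0.590 to -0.643 with group means removed. The 2 farthest libraries differ between the atrial genes. Without MI_ART 3 and Sham 2, the farthest for Myl7, r of Myl7 with Myl2 and Myl3 was 0.104 and 0.135. Without MI_ART 3 and MI_ART 1, the farthest for Myl4, r of Myl4 with Myl2 and Myl3 was -0.692 and -0.766. The sign and size therefore depend on which libraries are left out. These values describe 9 libraries in 3 groups scaled together, and differences in tissue makeup enter every pair.

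The genes whose levels were most like Myl7 over the 9 libraries were Tmem163 (r = 0.977), Fgf12, Dkk3, Gja5, Plekha7, Upk3b, Stard10 and Rpl29 (r = 0.932). Of 10799 genes compared, 12 had r above 0.9. Gja5 (connexin 40, a gap junction protein of atrial muscle and the conduction system) was at 17.2, 36.4 and 6.47 CPM in MI_ART 1, 2 and 3, 34.3, 32.1 and 36.4 CPM in MI 2, 3 and 4, and 39.9, 16.4 and 25.5 CPM in Sham 1, 2 and 3. Rpl29, a ribosomal protein gene, owed its place to the outlying libraries, with r = 0.249 without MI_ART 3 and Sham 2. Without the same libraries r was 0.71 for Fgf12 and Plekha7. It was 0.834 to 0.977 for Tmem163, Dkk3, Gja5, Upk3b and Stard10. Myl2 had many more genes near it: 1129 had r above 0.9. The nearest were Hadha (r = 0.992), Decr1, Hadh, Magix, Rxrg, Ckmt2, Msrb2 and Fabp3. Hadha, Hadh and Decr1 encode enzymes of mitochondrial fatty acid oxidation, Fabp3 a heart fatty acid-binding protein and Ckmt2 a mitochondrial creatine kinase. Hadha was at 578 to 811 CPM in MI_ART, 347 to 610 CPM in MI and 1570 to 1900 CPM in Sham.

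**Figure D5:**
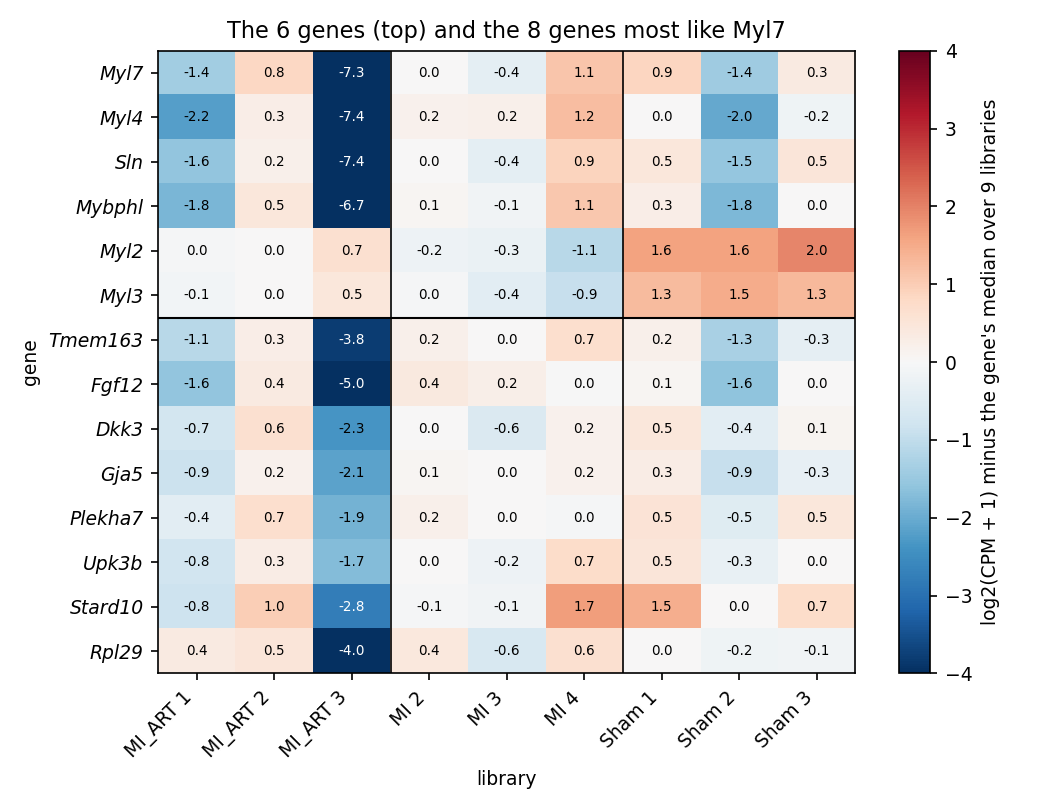
Log2(CPM + 1) of the 6 genes (top) and the 8 genes most like Myl7 (bottom) in each library, each as its difference from that gene's median over the 9 libraries, with colours saturating at 4 on either side. The 4 atrial genes are low in MI_ART 3, and Myl2 and Myl3 are high in the 3 Sham libraries. The genes most like Myl7 are also low in MI_ART 3, but they were chosen by their likeness to Myl7 over these same libraries.

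Light chains outside the cardiac pairs were higher in part after infarction. Of 8 such genes, 7 were tested, 3 were higher in MI than in Sham (18.8% of all tested genes were) and 4 did not pass. With total counts 6 of the 7 were higher. Myl6, the essential chain of smooth and non-muscle myosin, had a log2 fold change of 1.59 (edgeR adjusted p = 0.0053). Myl9 and Myl12b, regulatory chains of smooth and non-muscle myosin, had 2.04 and 1.08 (edgeR adjusted p = 0.0306 and 0.00298). Both Myl6 and Myl9 were highest in MI 4, at 542 and 695 CPM, and without MI 4 and MI_ART 3 the list had 2 higher genes. Summed levels of 5 smooth muscle markers were 376 to 887 CPM in MI_ART, 324 to 1430 CPM in MI, with MI 4 highest, and 173 to 1120 CPM in Sham, and their part in these values was not tested. The list's median in MI against Sham was 1.08, and 1.94 with total counts. Myl12b was also higher in MI_ART than in Sham (0.69), and Myl12a was lower (-0.70). With total counts 2 of the 7 were higher and 0 were lower in MI_ART than in Sham, so the call of Myl12a was lost. Myl1, an essential chain of fast skeletal and embryonic muscle, did not pass. It was at 36.9, 195 and 18 CPM in MI_ART 1, 2 and 3, 241, 225 and 238 CPM in MI 2, 3 and 4, and 88.9, 19.7 and 73.5 CPM in Sham 1, 2 and 3 (MI against Sham log2 fold change 1.95, edgeR adjusted p = 0.0879). Myl10 had no counts in any library.

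Of 9 genes for kinases and phosphatase subunits that act on light chains, 1 was higher and 4 were lower in MI against Sham, with a median of -0.76. With total counts 2 were higher and 2 lower, and the median was 0.05. Mylk3, the cardiac kinase that phosphorylates Myl2, was at 295, 367 and 328 CPM in MI_ART 1, 2 and 3, 292, 211 and 116 CPM in MI 2, 3 and 4, and 607, 581 and 672 CPM in Sham 1, 2 and 3. It was lower in MI than in Sham (log2 fold change -1.59, edgeR adjusted p = 0.00266) and in MI_ART than in Sham (-0.91, edgeR adjusted p = 0.0499), both without overlap. The call of Mylk3 in MI_ART against Sham was lost with total counts, where 0 of the 9 genes were lower and 3 were higher, and with limma-voom, which called 0 of the 9. Mylk4 (-2.58), the phosphatase subunits Ppp1r12b (-1.11) and Ppp1cb (-1.01) were also lower in MI than in Sham, and the kinase Dapk3 was higher (1.07, edgeR adjusted p = 0.0461).

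The heavy chains that carry these light chains were lower in part. Of 8 listed heavy chains 4 were tested, and 2 were lower in MI against Sham: Myh6, the main adult cardiac heavy chain of mice (log2 fold change -1.42, edgeR adjusted p = 0.000863), and Myh7b (-2.24, edgeR adjusted p = 0.00115). Myh7, the other cardiac heavy chain, had -0.23 (edgeR adjusted p = 0.51). Myh6 was also lower in MI_ART than in Sham (-0.99, edgeR adjusted p = 0.00926). Of 7 thick filament proteins that bind myosin, 6 were tested and 4 were lower in MI than in Sham. They were the M-band genes Myom1 (-0.89), Myom2 (-0.93) and Myom3 (-0.94), and Mybpc1, which had no counts in MI and averaged 0.416 CPM in Sham. Cardiac myosin-binding protein C, Mybpc3, had -0.42 (edgeR adjusted p = 0.113). With total counts the medians of the heavy chain and thick filament lists in MI against Sham were 0.005 and -0.07, against -0.83 and -0.91 with TMM. In MI_ART against Sham with total counts, 0 genes were lower and 1 was higher in each list, where TMM gave 1 and 2 lower.

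Of 6 genes for the calcium pump and its peptide regulators, to which Sln belongs, 2 were lower in MI than in Sham, with a median of -2.10 (-1.26 with total counts). The pump gene Atp2a2 had a log2 fold change of -2.00 (edgeR adjusted p = 0.00291), and Pln (phospholamban, the ventricular counterpart of Sln) had -2.19 (edgeR adjusted p = 0.00148). Pln was also lower in MI_ART than in Sham (-1.38, edgeR adjusted p = 0.0212). Strit1, a peptide that activates the pump, also passed as lower, at 0.111, 0.0375 and 0 CPM in MI_ART 1, 2 and 3, and 0.995, 1.05 and 1.19 CPM in Sham 1, 2 and 3. With total counts 0 of the 6 were lower and 1 was higher in MI_ART than in Sham. Of 18 cardiac and chamber transcription factors, 17 were tested and 1 was lower in MI than in Sham, the ventricular repressor Hey2 (-1.42, edgeR adjusted p = 0.00869). Of these 17, edgeR called 0 in MI_ART against Sham, with 2 at an unadjusted p under 0.05, and DESeq2 called 1 and limma-voom 0. With total counts 4 were higher in MI_ART than in Sham, 8 were higher and 0 were lower in MI against Sham, and the median in MI against Sham was 0.55 against -0.29 with TMM.

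Over these 7 lists, shared muscle genes included, 58 of 65 genes were tested, and edgeR called 13 in MI_ART against Sham (22.4%, beside 20.3% of all tested genes) and 24 in MI against Sham (41.4%, beside 33.1%). DESeq2 called 20 in MI_ART against Sham and 29 in MI against Sham, and limma-voom 12 and 26. In MI_ART against MI edgeR called 0 of 58, with 9 at an unadjusted p under 0.05, and DESeq2 and limma-voom called 0.

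Other chamber markers stood beside these results. Of 10 further atrial markers, 2 ion channel genes were lower in MI than in Sham, Kcnj5 (log2 fold change -1.10) and Kcna5 (-0.81), and Kcnj5 was also lower in MI_ART than in Sham (-1.08). The direction of this list turned with scaling: with total counts 2 were higher and 0 were lower in MI against Sham, the median was 0.56 against -0.29 with TMM, and 0 of the 10 passed in MI_ART against Sham. Nppa, atrial natriuretic peptide, was at 2310, 9760 and 1290 CPM in MI_ART 1, 2 and 3, 11500, 11500 and 20600 CPM in MI 2, 3 and 4, and 4870, 1180 and 3970 CPM in Sham 1, 2 and 3. Its change in MI against Sham was 2.12 (edgeR adjusted p = 0.0515). Bmp10, a signal made mainly in the right atrium of adult mice, was at 42.0 CPM in MI 4 and at 0.2 CPM or less in the other 8 libraries. Most of the 8 other ventricular markers are also in the lists above, and the lower calls of Hey2, Pln and Mylk3 are those already given. Of the 8, 5 were lower in MI than in Sham and 3 in MI_ART than in Sham, with medians of -1.14 and -0.74. With total counts 3 were lower and 1 was higher in MI than in Sham, 0 were lower and 1 was higher in MI_ART than in Sham, and the medians were -0.32 and 0.001. Kcnip2, a potassium channel subunit, was lower in both (-2.52 and -1.31).

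Markers of some other cells also moved with the groups. Summed levels of 7 fibroblast genes were 6830 to 8080 CPM in MI_ART, 7730 to 9110 CPM in MI and 1640 to 1830 CPM in Sham. Those of 7 macrophage genes were 1790 to 3430 CPM in MI_ART, 2650 to 3090 CPM in MI and 334 to 510 CPM in Sham. All 7 macrophage genes were higher in both infarcted groups than in Sham, and 5 of 7 fibroblast genes were higher in each of these comparisons, while 1 fibroblast gene was lower in MI than in Sham. Of 15 skeletal muscle genes, 11 were tested, and their sum was 686 to 1020 CPM in MI_ART, 547 to 725 CPM in MI and 2290 to 2400 CPM in Sham. Most of that sum was Ckm, the muscle creatine kinase that the heart also makes, and the other 14 genes summed to 28.1 to 46.2 CPM in MI_ART, 66.2 to 152 CPM in MI and 26.2 to 39.5 CPM in Sham. Ckm was lower than in Sham in both MI_ART (log2 fold change -1.52, edgeR adjusted p = 0.00151) and MI (-2.19, edgeR adjusted p = 0.000166). Tnnt3, which encodes troponin T of fast muscle, was at 2.42, 2.8 and 1.29 CPM in MI_ART 1, 2 and 3, 21.8, 33.1 and 63.5 CPM in MI 2, 3 and 4, and 0.774, 0.671 and 0.421 CPM in Sham 1, 2 and 3. It was lower in MI_ART than in MI (-4.18, edgeR adjusted p = 0.0447), 1 of the 2 genes called in that comparison, and was higher than in Sham in both MI_ART (1.8, edgeR adjusted p = 0.0202) and MI (5.98, edgeR adjusted p = 9.03e-05). With total counts and with limma-voom 0 of these skeletal genes passed in MI_ART against MI. Tnni2, the fast skeletal troponin I, was higher in MI than in Sham (3.89), and Mybpc1 was lower. The defining heavy chains of fast skeletal muscle, Myh1, Myh2 and Myh4, were at 0.2 CPM or less. With TMM and all 9 libraries, 0 smooth muscle, brown adipocyte or conduction markers passed in any comparison. With total counts 1 conduction marker was higher in MI than in Sham. Without MI 4 and MI_ART 3, 3 brown adipocyte markers and 1 conduction marker were lower there. All 5 neutrophil markers were higher in MI and 4 in MI_ART, each against Sham. DESeq2 called 5 and 4 of them in these comparisons, but limma-voom only 2 and 1. Of 6 endothelial markers 2 were lower in MI than in Sham, where total counts gave 3 higher and 0 lower. The part of these cells and of the tissue dissected in the levels of the 6 genes was not tested.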

How the data were processed

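Bulk RNA-seq used a SMARTer mRNA kit and 1.3 µg of total RNA per library, per the labels' protocols. The deposited table holds raw read counts for Ensembl genes, without normalization. The submitters' processing notes name HISAT, featureCounts 1.5.0-p3, DESeq 1.8.3 and GRCm38. Strand use and the treatment of multi-mapping reads are not given in the sources. All 9 columns of the count table were used. Positions come from a RefSeq gene table (GRCm38.p6).

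Counts were fitted in R 4.3.3 with edgeR 4.0.16 (filterByExpr, TMM, all 9 libraries with 1 mean per group, quasi-likelihood F tests, and Benjamini-Hochberg adjustment over 19326 genes, with calls under 0.05). Every adjusted p of a gene comes from this fit unless another tool is named. DESeq2 1.42.0 and limma 3.58.1 (voom) were alternatives. Log2 ratios were tested between groups by exact permutation (two-sided), adjusted over 21 tests. The sum of regulatory over essential chains was planned per length but was computed on counts, since lengths were not at hand.

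The 6 genes and all lists were chosen with earlier results of these data known. Named genes are these 6, the called genes of each list (or its 2 highest where none passed, described in part), and the 8 genes nearest to Myl7 and to Myl2 by Pearson's r of log2(CPM + 1) among genes with a mean of at least 5 CPM. Bmp10, Nppa, Sbk2, Kcnj3, Pam, Myl1, Myl10, Myh7 and Mybpc3 were named after their values were seen.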

Additional observations from a re-analysis of the deposited data

How the results depend on the processing

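Counts of calls and fold changes were recomputed with other scalings, filters and tools, with the replicate block, with each library left out, and with MI 4 and MI_ART 3 left out together, the last chosen after the data were seen. Ratios were recomputed with 1 count added, with the replicate block and with each library left out. Across 45 results, 582 recomputed values were held to be the same, 23 counts moved, 2 calls were lost and 17 values reversed. For fold changes, the same meant direction and side of the threshold. For ratios it meant direction alone, and for counts of calls an equal or similar number. Myl2 and Myl3 were called in MI against Sham in all 19 alternatives (log2 fold change -2.35 to -1.35 for Myl2 and -2.01 to -0.94 for Myl3). The alternatives of each comparison include those without a library of the group not compared. These can change only the scaling and the shared estimate of spread. In MI_ART against Sham Myl2 was called in all 19, and the number of the 6 genes called was 1 with total counts and 1 with muscle scaling, where Myl3 was lost at -0.48 and -0.61. Genes called in MI against Sham were 6399, and 10172 with total counts. In MI_ART against Sham they were 3921, against 8156 with total counts, 6262 with muscle scaling, 5926 with the replicate block and 2098 to 6367 with 1 library left out (2098 without MI_ART 1, 2513 without MI_ART 3, 2512 without Sham 3 and 6367 without MI 4). In MI_ART against MI they were 2, against 93 with DESeq2, 1 with total counts, 1 without the count filter, 1 with limma-voom, 0 with only the 2 groups compared, 1 with the replicate block, 1 without MI 4 and MI_ART 3, and 0 to 3 with 1 library left out. In MI against Sham Myl7 was -0.52 and Sln -0.44 with the replicate block, and -0.38 and -0.24 without MI 4 and MI_ART 3. With 1 library left out Myl7 ranged from -0.38 to 0.68 and Sln from -0.24 to 0.49. In MI_ART against MI Myl7 was 0.29 without MI 4 and MI_ART 3. In MI_ART against Sham with total counts Myl7 was 0.069, Myl4 0.16 and Mybphl 0.16. With 1 library left out, the log2 ratios in MI_ART against Sham ranged from -1.54 to 3.12 for Myl2 over Myl7, from -1.17 to 3.01 for Myl3 over Myl4 and from -0.035 to 0.49 for Myl4 over Myl7. Sln over Myl7 in MI against Sham was -0.010 with the replicate block and -0.090 to 0.18 with 1 library left out. The replicate numbers are not shown to pair the samples: same-numbered libraries had correlations of deviations from the group means of -0.007 to 0.217, and not every library correlated best with its own number. Apart from the changes with total counts, muscle scaling and left-out libraries, the cause of these shifts was not tested. Depth did not limit the 6 genes, since the lowest count was 50 (Mybphl in MI_ART 3). With 3 libraries per group, ratio tests cannot go below 0.1.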
